A study of Mus musculus with 2 samples.

Results

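Small nucleolar RNAs and small Cajal body RNAs were examined in the whole uterus of pregnant mice. The 114 members are the rows of the expression table whose symbol starts with Snord, Snora or Scarna followed by a digit, out of 22740 rows in all. They comprise 69 box C/D RNAs (Snord), 36 box H/ACA RNAs (Snora) and 9 small Cajal body RNAs (Scarna). Each member was also assigned to the host gene that spans it on the same strand, where there was one.

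Both libraries came from C57BL/6 mice titled WT (wild type) at pregnant day 4, 1 library per animal, and they form the study's 1 group, with no treated, mutant or non-pregnant comparison. Whole uteri were taken into TRIzol, and poly-A RNA was purified before TruSeq library construction and HiSeq2500 sequencing. The authors gave each gene's level as RPKM, reads scaled to gene length and to library size. With 1 group there is no test, so levels and differences between the 2 uteri are described, with counting intervals for the differences of members that the results turn on.

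Box C/D RNAs guide the 2′-O-methylation of ribosomal RNA and other RNAs, and carry a box C near the 5′ end and a box D near the 3′ end. Box H/ACA RNAs guide pseudouridylation, the isomerization of uridine, and end in an ACA box. Small Cajal body RNAs carry either or both kinds of box and guide the modification of spliceosomal small nuclear RNAs in the Cajal body. Most members of all 3 classes are cut out of the introns of a host gene, bound by a class-specific set of proteins and trimmed at both ends, and they lack the poly-A tail of messenger RNA.

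The sequences on which the results turn are given first, read from the mm9 (NCBIM37) genome over the deposited span, 5′ to 3′, with the box letters in capitals. The 5 box C/D RNAs shown are the 3 with most reads and the 2 box C/D members named for standing higher in uterus 2. Snord22 lies at chr19:8800356-8800481 (plus strand) and touches an exon of its noncoding host Snhg1. Snord15b lies at chr7:106628073-106628217 (minus strand) and touches an exon of Rps3. Snord17 lies at chr2:144091718-144091938 (minus strand) in an intron of Snx5. Snord2 lies at chr16:23109026-23109093 (plus strand) and touches an exon of Eif4a2. Snord99 lies at chr4:131866618-131866673 (plus strand) and touches an exon of the noncoding host Snhg12. It is printed a second time over its longer GENCODE M1 span, chr4:131866606-131866679 (plus strand), because the deposited span starts inside its box C.
Snord22: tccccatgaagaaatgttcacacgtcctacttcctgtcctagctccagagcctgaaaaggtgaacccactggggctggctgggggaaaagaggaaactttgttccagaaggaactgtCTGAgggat
Snord15b: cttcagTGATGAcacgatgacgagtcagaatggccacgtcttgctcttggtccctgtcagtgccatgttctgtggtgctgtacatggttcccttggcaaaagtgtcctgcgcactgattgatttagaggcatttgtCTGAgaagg
Snord17: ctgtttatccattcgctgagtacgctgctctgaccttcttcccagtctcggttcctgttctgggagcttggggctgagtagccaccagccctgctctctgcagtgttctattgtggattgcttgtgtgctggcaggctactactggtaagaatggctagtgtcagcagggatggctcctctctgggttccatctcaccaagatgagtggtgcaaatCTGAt
Snord2: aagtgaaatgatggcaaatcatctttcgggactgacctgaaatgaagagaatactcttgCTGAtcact
Snord99: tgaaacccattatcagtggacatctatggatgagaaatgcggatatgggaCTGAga
Snord99 GENCODE span: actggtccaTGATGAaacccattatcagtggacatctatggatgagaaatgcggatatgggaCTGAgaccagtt

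The 3 box H/ACA RNAs shown were chosen for the size of their difference between the uteri or for sharing a host with Snord99. Snora78 lies at chr17:24856621-24856777 (minus strand) within the noncoding host Snhg9. Snora44 lies at chr4:131865868-131865984 (plus strand) and Snora16a at chr4:131865380-131865515 (plus strand), both within Snhg12. Snora44 touches an Snhg12 exon in the annotation, while Snora16a touches none. Snora44 has no capitals because ACA is absent from its last bases.
Snora78: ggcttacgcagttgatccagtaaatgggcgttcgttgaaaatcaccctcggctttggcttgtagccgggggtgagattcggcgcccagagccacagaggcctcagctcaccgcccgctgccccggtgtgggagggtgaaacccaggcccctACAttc
Snora44: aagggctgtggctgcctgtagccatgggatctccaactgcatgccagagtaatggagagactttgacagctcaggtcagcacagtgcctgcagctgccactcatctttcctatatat
Snora16a: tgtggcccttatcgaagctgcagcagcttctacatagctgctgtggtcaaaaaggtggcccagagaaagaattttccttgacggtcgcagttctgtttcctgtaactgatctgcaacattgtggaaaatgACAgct

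The 3 Cajal body RNAs with most reads are shown because their deposited spans differ so much in completeness. Scarna2 lies at chr3:108357260-108357320 (minus strand) with no host gene in the table. Scarna10 lies at chr6:125136379-125136449 (minus strand) in an intron of Ncapd2, and Scarna13 at chr12:106269287-106269559 (minus strand) within the noncoding host Snhg10. The printed 61 bases of Scarna2 are the 3′ part of a 414-base GENCODE span, and the 71 bases of Scarna10 the 3′ part of a 325-base span. Scarna13 is nearly whole, with 273 of 275 bases.
Scarna2: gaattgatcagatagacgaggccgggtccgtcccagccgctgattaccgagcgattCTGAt
Scarna10: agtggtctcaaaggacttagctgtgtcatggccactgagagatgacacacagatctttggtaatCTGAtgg
Scarna13: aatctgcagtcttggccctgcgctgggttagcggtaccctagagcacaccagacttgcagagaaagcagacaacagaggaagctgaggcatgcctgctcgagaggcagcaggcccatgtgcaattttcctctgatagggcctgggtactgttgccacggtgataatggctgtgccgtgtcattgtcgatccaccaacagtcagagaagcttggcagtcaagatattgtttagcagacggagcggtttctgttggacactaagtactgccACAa

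The 3′ boxes identified the classes by sequence, as the symbols do. CTGA, the box D letters, stood in the last 12 bases of 67 of 69 box C/D RNAs (97.1%), the exceptions being Snord123 and Snord53. Over the GENCODE spans, which often run further at the 3′ end, it stood there in 56 of 68 (82.4%). The same search found it in 2 of 36 box H/ACA RNAs, and in 2 and 6 of 69 equally long windows directly before and after the box C/D members. ACA stood in the last 8 bases of 34 of 36 box H/ACA RNAs (94.4%), all but Snora81 and Snora44, and over the GENCODE spans in 33 of 35 (94.3%). It was found there in 1 of 69 box C/D RNAs (6 of 68 over the GENCODE spans), and in 2 and 4 of 36 windows before and after the box H/ACA members. On the opposite strand, CTGA was found in 2 of the 69 box C/D RNAs and ACA in 8 of the 36 box H/ACA RNAs. ANANNA, the loose letters of box H, stood anywhere in 36 of 36 box H/ACA RNAs, but also in 30 and 23 of the windows before and after them. Of the 9 Cajal body RNAs, 4 held CTGA and 4 held ACA in these end windows.

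The 5′ ends were less complete. TGATGA, the letters searched for box C, stood in the first 20 bases of 21 of 69 box C/D RNAs over the deposited spans, as in Snord15b above. Over the GENCODE spans it stood there in 44 of 68, and in 22 of those 44 the deposited span had lost it. Of 112 members with a GENCODE span, 94 were shorter in the deposited table, with a median of 10 bases missing at the 5′ end and 1 at the 3′ end. RPKM divides by length, so the span used bears on a member's value. Whether reads also lay over the missing bases was not tested.

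Levels across the 3 classes were broad. They are RPKM of RNAs without a poly-A tail in poly-A purified libraries. How far they follow amounts in the uterus, and how purification bears on comparisons with hosts, was not tested. At least 1 RPKM was listed in both uteri for 84 of 114 members (73.7%), against 58.4% of all rows and 29.9% of the 2295 rows with noncoding (NR_) identifiers. Both uteri were listed at 0 for 18 members, against 23.4% of all rows, and 12 members were above 0 in 1 uterus only. By class, 48 box C/D, 29 box H/ACA and 7 Cajal body RNAs reached 1 RPKM in both. The threshold asks little of such short genes, since 1 read was worth 0.955 to 6.21 RPKM in uterus 1 and 0.861 to 5.59 in uterus 2. With at least 5 reads asked for in both uteri, 14 box C/D RNAs, 23 box H/ACA RNAs and 6 Cajal body RNAs remained. An exact 0 in this table need not mean absence, as Rpl26, a ribosomal protein gene, is listed at 0 in both uteri too.

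**Figure D1:**
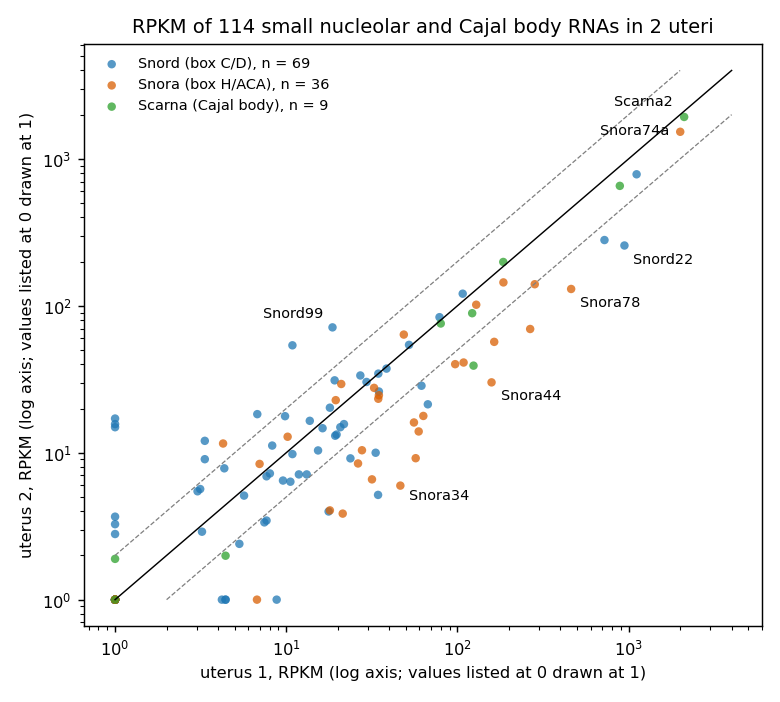
Each point is 1 of 114 members, with its RPKM in uterus 1 on the horizontal and in uterus 2 on the vertical axis (both log axes), coloured by class, with a solid line of equal level and dashed lines 2-fold to either side. Values listed at 0 are drawn at 1, and the 12 members of at least 100 RPKM in both uteri stand at the upper right.

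The reads behind the values were recovered for 113 members, because member RPKM values are whole multiples of the value of 1 read. Snord58b alone did not give whole reads, at 9.57 and 6.47 RPKM, and is left out of read counts. The members held 5914 reads in uterus 1 and 4286 in uterus 2. The 6 deepest (Snora74a, Snord17, Scarna2, Snord22, Snord15b and Scarna10) held 68.7% and 70.9% of these reads, while 61 members had fewer than 10 reads over both uteri. Members made up 2.79% of the summed RPKM in uterus 1 and 1.87% in uterus 2 (2.33% ± 0.66, SD, n = 2).

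Box C/D RNAs, the methylation guides, had the lowest class median, 8.79 RPKM in uterus 1 and 9.04 in uterus 2. Snord17 was the highest, at 1114 and 786 RPKM (944 and 739 reads), or 950 ± 232 (SD, n = 2). Snord22, whose frog counterpart is required for small-subunit ribosomal RNA maturation, stood at 946 and 257 RPKM (457 and 138 reads). Snord15b, a guide for large-subunit ribosomal RNA, was at 723 and 280 RPKM (402 and 173 reads). These 3 RNAs held most of the class's 2082 and 1333 reads, and each was higher in uterus 1. Snord2 followed at 107 and 121 RPKM (28 and 35 reads), and Snord104, without a host, at 78.6 and 83.7 (22 and 26 reads). Snord47, within the noncoding host Gas5, had 52.2 and 54.2 RPKM (13 and 15 reads). These shorter RNAs were about level between the animals, unlike the 3 above. The class thus combined a few long RNAs of many reads with many RNAs of few reads: its median member had 2 reads in uterus 1 and 3 in uterus 2.

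Box H/ACA RNAs, the pseudouridylation guides, had a median of 33.5 RPKM in uterus 1 and 15.0 in uterus 2. Snora74a, a guide for large-subunit ribosomal RNA, was by far the deepest member, at 2004 and 1530 RPKM (1521 and 1289 reads). Snora78 stood at 462 and 130 RPKM (278 and 87 reads). Snora7a stood at 283 and 140 RPKM (140 and 77 reads), within Rpl32. Each of these was higher in uterus 1. Snora68 had 266 and 69.5 RPKM (100 and 29 reads). Snora23, in Ipo7, had 186 and 144 RPKM (131 and 113 reads). Snora81, in Eif4a2, had 129 and 102 RPKM (81 and 71 reads). The 2 uteri were closer for Snora23 and Snora81 than for Snora68, whose values were nearly 4-fold apart.

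Small Cajal body RNAs had the highest class median, 122 RPKM in uterus 1 and 75.8 in uterus 2. Scarna2, a guide for the U2 spliceosomal RNA, was the highest member of all at 2112 and 1930 RPKM (494 and 501 reads), or 2021 ± 129 (SD, n = 2). Scarna10, a composite guide for the U5 spliceosomal RNA, had 889 and 655 RPKM (242 and 198 reads). Scarna13, an H/ACA type guide, had 185 and 199 RPKM (194 and 231 reads). Scarna2 and Scarna13 hardly differed between the animals. Scarna6 followed at 122 and 89.1 RPKM (116 and 94 reads). Scarna9 stood at 124 and 39.2 RPKM, from only 20 and 7 reads. Scarna17, a guide without a host in the table, was at 79.9 and 75.8 RPKM (19 and 20 reads). The last 3 were at or near 0: Scarna8 had 2 and 1 reads, Scarna3b had 0 and 1, and Scarna3a was listed at 0 in both.

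The order of the highest members depended on the length assigned to them. When the same recovered reads were divided by the GENCODE span instead, which takes no account of reads outside the deposited span, Scarna2 moved from first (2021 RPKM) to sixth (298 RPKM). Snora74a was then first at 1785 RPKM, followed by Snord17 at 882, Snord22 at 602, Snord15b at 502 and Snora78 at 363. Snora74a and Snord17 have deposited spans close to the GENCODE ones, so their levels moved little.

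Members with many reads were mostly long. Those of under 70 bases had a median of 2.5 and 3 reads, and those of 70 to 99 bases 1.5 and 2. Members of 100 to 129 bases had 12 and 5, and the 14 of at least 130 bases had 98.5 and 79. These 14 held 63.8% of the members' reads in uterus 1 and 66.7% in uterus 2. On GENCODE lengths the 8 members of at least 150 bases (Scarna2, Scarna10, Scarna13, Scarna6, Snora74a, Snora23, Snora81 and Snord17) held 3723 and 3236 reads, and none of them was listed at 0. Spearman's rho between deposited length and reads was 0.35 over 113 members, 0.38 within the 36 box H/ACA RNAs and 0.06 within the 68 box C/D RNAs, as a description across genes that share 2 libraries. How much the library's fragment sizes contributed was not tested.

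**Figure D2:**
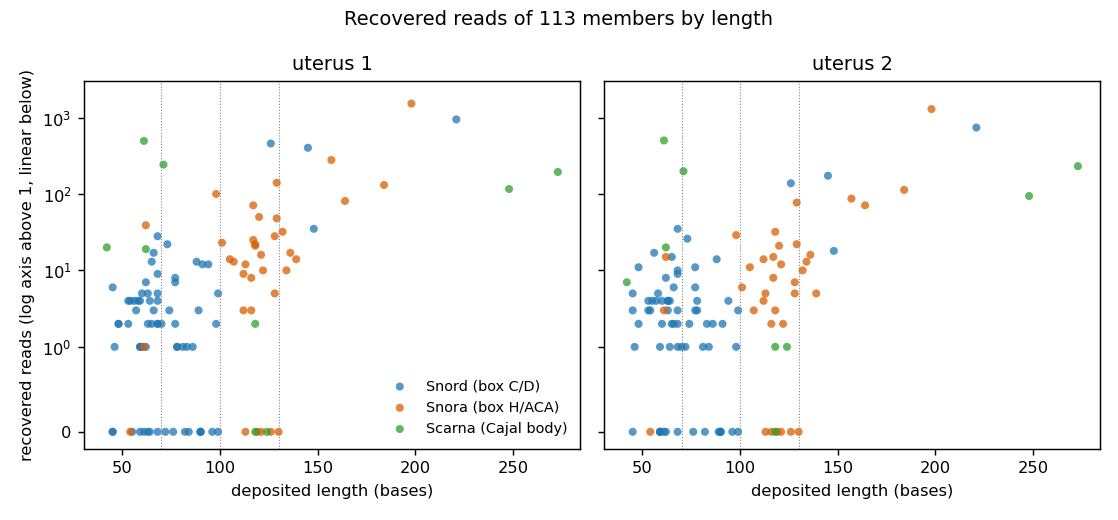
Recovered reads of 113 members (vertical, log axis above 1) against deposited length in bases (horizontal), for uterus 1 at the left and uterus 2 at the right, coloured by class. The 14 members of at least 130 bases hold 63.8% and 66.7% of the reads, and short members with many reads are few, Scarna2 and Scarna10 among them.

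The classes differed between the 2 animals to unlike degrees. The level in uterus 2 was divided by that in uterus 1 on a log2 scale, after adding 0.1 RPKM to each, for the 95 members with a mean of at least 1 RPKM. Of these, 11 were at 0 in 1 uterus (10 box C/D RNAs and 1 box H/ACA RNA). They passed the filter through the other uterus only, so their direction and fold were fixed by it, and the counts and medians that follow leave them out. Of the other 84, 58 were lower in uterus 2 and 26 higher, with a median of -0.46, against 49.9% lower and a median of 0.00 over the 13647 rows past the filter. Among box H/ACA RNAs 23 of 29 were lower in uterus 2 (median -1.40), among Cajal body RNAs 6 of 7 (median -0.44) and among box C/D RNAs 29 of 48 (median -0.15). With the 11 members included, 63 of 95 were lower and the class medians were the same to 2 decimals. Without members that touch an exon of another gene or a microRNA row, but with Snora75 (3 and 0 reads) kept in, the box H/ACA median was -0.79. With Snora75 left out as well, the middle member was Snora28, at -0.56. At this filter, 17 of 29 box H/ACA RNAs, 11 of 48 box C/D RNAs and 2 of 7 Cajal body RNAs were at least 2-fold lower in uterus 2, against 1.42% of all rows past the filter. At least 2-fold higher were 1, 5 and 0, against 1.18%. At equal RPKM a longer gene rests on more reads, so these shares of all rows are not matched to the members' counting noise.

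Summed reads, which weight deep members most, gave smaller differences for the box H/ACA class. After scaling by library, its 2745 and 1900 reads gave a log2 ratio of -0.68 (95% counting interval -0.77 to -0.60). The 2082 and 1333 box C/D reads gave -0.79 (-0.89 to -0.69), and the 1087 and 1053 Cajal body reads -0.20 (-0.32 to -0.07). All 3 sums were lower in uterus 2 beyond counting error. Without the 6 deepest members, the other 107 held 1854 and 1248 reads, at -0.72 (-0.83 to -0.62). Intervals cover counting error only, not the variation between animals, which 2 libraries cannot separate from library preparation. In a whole organ, fewer cells of a type and less RNA per cell cannot be told apart either.

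Within the box C/D class most of the reads behind the difference belonged to its 4 longest members. The 64 box C/D RNAs of under 100 bases had 244 and 265 reads in sum, which gave a log2 ratio of -0.03 (-0.29 to 0.23), so no difference was detectable at this depth. Snord22, of 126 bases, was at -1.88 (-2.16 to -1.60). Snord17, Snord15b and Snord15a together, of 145 to 221 bases, were at -0.72 (-0.84 to -0.60). Among box H/ACA RNAs every deposited length class was lower in uterus 2. The log2 ratio was -1.73 (-2.23 to -1.24) for the 4 of under 100 bases and -1.22 (-1.44 to -0.995) for the 23 of 100 to 129. It was -0.53 (-0.62 to -0.43) for the 9 of at least 130. The 4 (Snora68, Snora61, Snora20 and Snora19) span 128 to 132 bases in GENCODE, so they are not short RNAs. Snora68 and Snora61 held most of their reads, and Snora20 went the other way (1 and 3 reads). Snora74a (-0.39) held 1521 and 1289 of the 2084 and 1604 reads of the longest class, and so weighs most in its value. By GENCODE length over all classes, members of under 80 bases were at 0.06 (-0.23 to 0.35), those of 80 to 109 bases, all 26 of them box C/D RNAs with 70 and 51 reads in sum, at -0.61 (-1.16 to -0.07) and those of 110 to 149 bases at -1.48 (-1.60 to -1.36). Members of at least 150 bases were at -0.35 (-0.42 to -0.28). The difference was thus widest at 110 to 149 bases, and length and class cannot be told apart where 1 class fills a length range. These length ranges were set after the values were seen.

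Among the 37 members with at least 20 reads over both uteri, 29 were lower in uterus 2 and 8 higher. The 21 box H/ACA RNAs among them had a median of -1.27, and 12 were at least 2-fold lower and none at least 2-fold higher. The members furthest toward uterus 1 were nearly all of that class. Snora34, within Kansl2, had 46.4 and 5.97 RPKM (21 and 3 reads), a log2 ratio of -2.94 with a counting interval of -5.35 to -1.21. Snora21, within Rpl23, had 57.1 and 9.18 RPKM (28 and 5 reads), at -2.62 (-4.37 to -1.24). Snora44, within Snhg12, had 158 and 30.1 RPKM (71 and 15 reads), at -2.39 (-3.30 to -1.58). Each of these 3 had at least 4-fold more RPKM in uterus 1. Snora5c, within Tbrg4, had 59.4 and 14.0 RPKM (23 and 6 reads), at -2.08 (-3.68 to -0.75). Snora68 was at -1.93 with a counting interval of -2.59 to -1.33. Snora78 was at -1.83 (-2.19 to -1.47), about as far as Snord22.

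Few members with 20 reads stood higher in uterus 2, and mostly by little. Snord99 had 18.6 and 71.3 RPKM (4 and 17 reads), a log2 ratio of 1.93, with a counting interval of 0.32 to 3.97 on its reads. Snora31, within Tpt1, had 21.0 and 29.4 RPKM (9 and 14 reads). Snora65, within Rpl12, had 48.6 and 63.7 RPKM (22 and 32 reads). The intervals of these 2 box H/ACA RNAs, -0.82 to 1.88 and -0.44 to 1.24, include 0. Snora52, within Rplp2, had 19.5 and 22.8 RPKM (10 and 13 reads). Snord2 and Scarna13 had ratios of 0.17 and 0.10. Of these 6, only Snord99 had an interval that left out 0. It was picked as the furthest toward uterus 2 of 37 members, which its interval does not allow for. Counting error is therefore not excluded for Snord99.

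**Figure D3:**
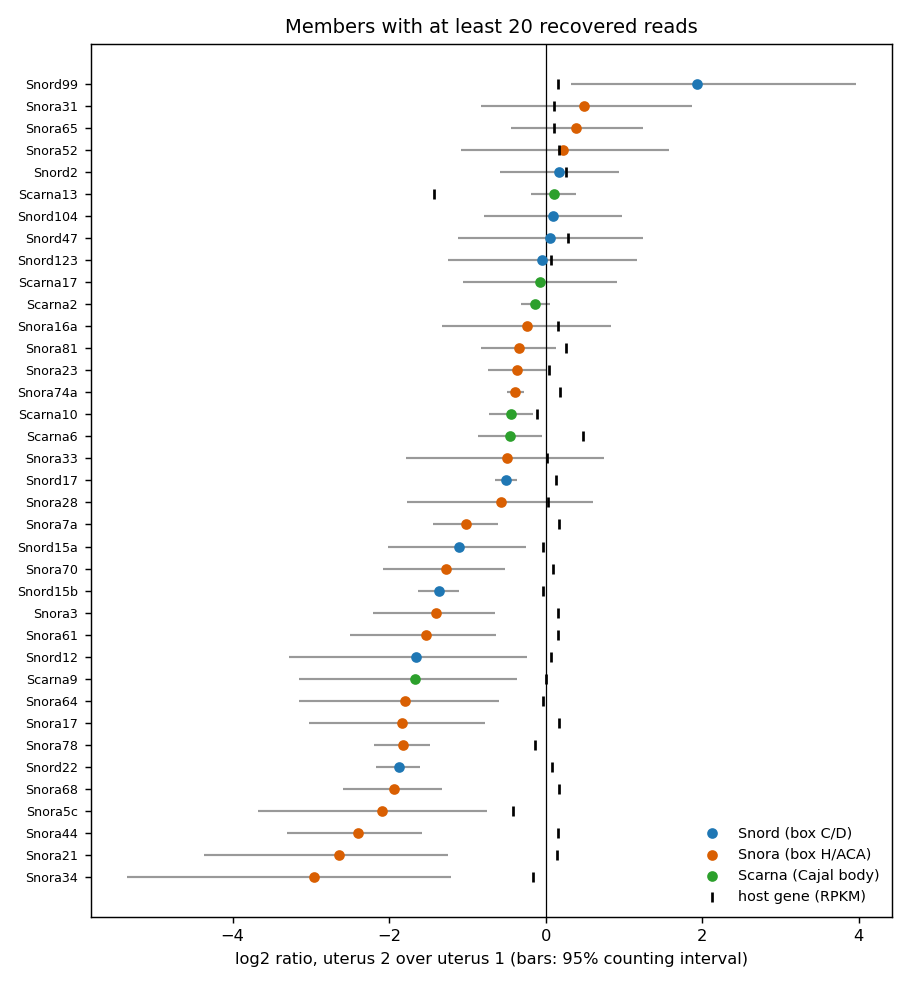
Log2 ratio of uterus 2 over uterus 1 from recovered reads (points, coloured by class, with 95% counting intervals) for the 37 members with at least 20 reads, with the host gene's RPKM ratio as a black tick. Most points lie left of 0, down to Snora34, while the host ticks gather near 0.

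The hosts of the deeper members were compared between the uteri in the same way. Of the 37 deeper members, 34 have a host in the table, and the median log2 ratio of those hosts was 0.11, with 1 of 29 distinct hosts at least 2-fold apart. That count is near the 2.6% of all rows past the filter, while 18 of the 37 members were at least 2-fold apart. The host 2-fold apart was Snhg10, at 4.93 and 1.78 RPKM, and its member Scarna13 was about level. Snhg1 had 93.1 and 98.2 RPKM while its member Snord22 had 946 and 257. Rps3, a small-subunit ribosomal protein gene, had 423 and 412 RPKM while Snord15b had 723 and 280. Each of these 2 hosts stood at a near equal level in both animals while its member was at least 2-fold lower in uterus 2.

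Levels of members were not ordered by those of their hosts. A host was found for 105 members, in 78 genes, 76 of which had at least 1 RPKM in both uteri. The 9 without one were Scarna2, Scarna17, Snora30, Snord104, Snord89, Snord58b, Snord64, Snord116l1 and Snord116l2. Levels were compared for the 88 hosted members whose mean reached 1 RPKM. Spearman's rho between member and host mean RPKM was 0.04 over these 88, a description across genes measured in the same 2 libraries. Their median log2 ratio to the host was -2.58, with a range from -7.91 to 7.67. Among hosted members with at least 20 reads, the median was 0.025 and rho -0.27. This filter acts on the member's own reads, so it raises the median ratio to the host by itself. No effect of depth can be read from these changes of sign. Over all 105 hosted members, including those at or near 0, 18 were above their host and 86 below, and Snora35 was listed at 0 with its host. Snora78 marked the upper end, at 462 and 130 RPKM within a host (Snhg9) of 1.43 and 1.28 RPKM. Snora74a stood at 2004 and 1530 RPKM over Snhg4 at 14.0 and 15.9. Snord4a marked the lower end of the 88, with 2 and 1 reads inside Rpl23a at 1284 and 1361 RPKM.

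**Figure D4:**
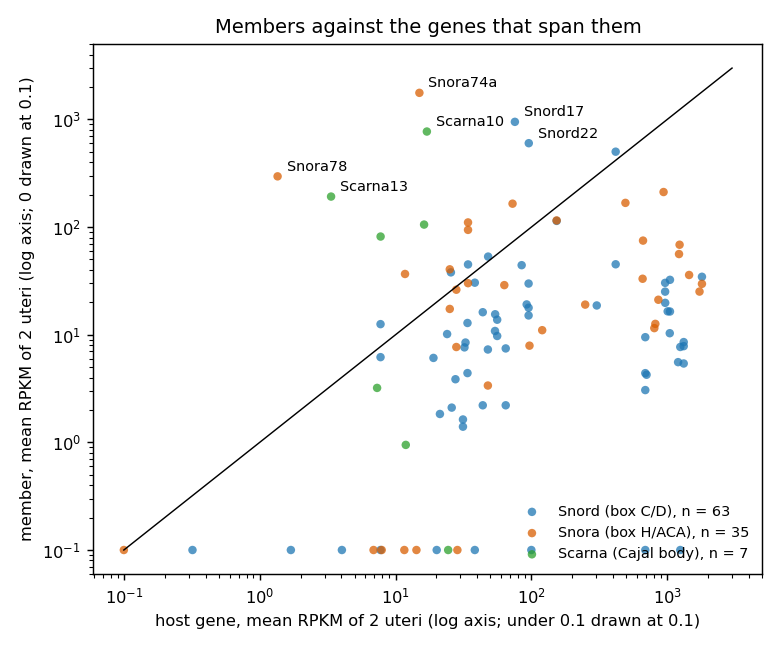
Mean RPKM of each hosted member (vertical) against mean RPKM of its host gene (horizontal), both on log axes, coloured by class, with a line of equal level. Points at one host level spread over several orders of magnitude, and 86 members lie below the line.

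Levels were compared between hosts of different function. The 30 members in 21 genes for ribosomal proteins had a median of 17.6 RPKM inside hosts with a median of 940 RPKM, and 1 of them (Snord15b) exceeded its host. The 9 members in 7 other translation genes had a median of 25.2 inside hosts at 249 RPKM, and none exceeded its host. The 27 members in 18 hosts with noncoding (NR_) identifiers, Rabggtb among them, had a median of 17.8 RPKM against a host median of 25.3. Of these members, 11 exceeded their host. The 39 members in 32 other coding genes had a median of 7.29 against 26.8, and 6 exceeded their host. Member medians thus ran from 7.29 to 25.2 RPKM, and host medians from 25.3 to 940. Many hosts of such RNAs start transcription with a C followed by pyrimidines, a feature of translation genes. C followed by at least 4 C or T letters, starting within 5 bases of the annotated start on the gene's own strand, was found in 21 of 59 hosts with a RefSeq promoter (35.6%) and in 5718 of 27025 genes (21.2%).

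Members of the same host differed too. Of the 20 hosts with at least 2 members, 6 held members with means at least 4-fold apart, and 8 held members within 2-fold. In Rps3, Snord15b stood at 723 and 280 RPKM and Snord15a at 61.7 and 28.6. In Eif4a2, which encodes a translation initiation helicase (140 and 167 RPKM), Snora81 and Snord2 stood at nearly the same mean. Snord2 was higher in uterus 2 and Snora81 in uterus 1, with counting intervals that both include 0.

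Snhg12, a noncoding host at 32.3 and 36.1 RPKM, held 4 members with log2 ratios from -2.39 (Snora44) to 1.93 (Snord99). Its 3 box H/ACA RNAs, Snora44, Snora61 and Snora16a, had 127 reads in uterus 1 and 46 in uterus 2. Snora61 had 164 and 56.8 RPKM (39 and 15 reads), and Snora16a 32.6 and 27.6 RPKM (17 and 16 reads). Snord99, its box C/D member, was higher in uterus 2 (4 and 17 reads), with the limit on its interval given above. The other hosts with at least 3 members held only box C/D RNAs with few reads. Rpl13a (687 and 692 RPKM) spans Snord32a with 1 and 1 reads, Snord33 with 0 and 0, Snord34 with 3 and 2, and Snord35a with 3 and 0. Rpl23a spans Snord42a with 0 and 3 reads, Snord42b with 0 and 4, and Snord4a with 2 and 1. The highest of these 7 RNAs in either uterus was Snord42b, at 17.1 RPKM in uterus 2, inside a host at 1361 RPKM. The noncoding host 2410006H16Rik (83.7 and 107 RPKM) spans Snord49a with 7 and 8 reads, Snord49b with 5 and 4, and Snord65 with 3 and 4. The noncoding host 1810032O08Rik (8.10 and 7.41 RPKM) spans Snord1a with 0 and 0 reads, Snord1b with 2 and 6, and Snord1c with 1 and 3. Reads shared by similar copies in this family may have been divided or dropped, which the sources used here do not state.

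**Figure D5:**
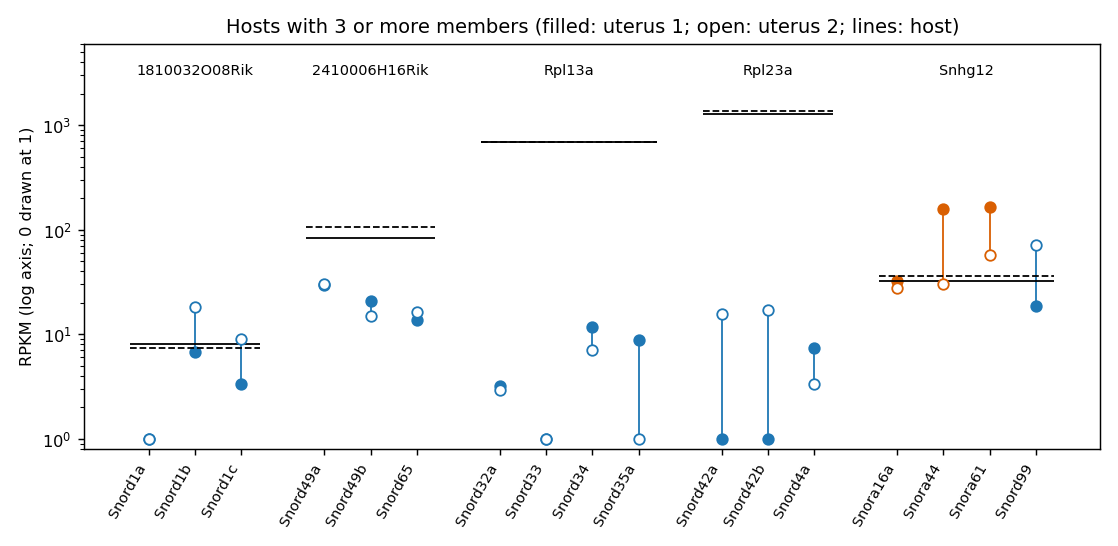
RPKM (log axis, 0 drawn at 1) of each member of the 5 hosts with 3 or more members, filled for uterus 1 and open for uterus 2, with a line at the host's level. The members of Rpl13a and Rpl23a lie far below their host line, while Snora44 and Snora61 of Snhg12 lie above it in uterus 1.

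Members that share their position with another gene were set apart. In the annotation 36 members touch an exon of another gene, usually the host, and reads from the pair cannot be told apart there. Of the 36, 5 were listed at 0 in both uteri (13.9%), against 9 of the 72 that touch neither an exon nor a microRNA row (12.5%). Of the 7 that overlap a microRNA row, 5 were listed at 0 in both: Scarna3a, Snora36b, Snora47, Snord33 and Snord93. Scarna3b had 1 read in uterus 2, and Scarna13 was the exception at 194 and 231 reads. The overlapping microRNA rows (Mir1843b, Mir664, Mir1940, Mir5121, Mir3096b, Mir1843 and Mir3069) were themselves listed at 0. How reads in such overlaps were assigned is not given in the sources used here.

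The imprinted small nucleolar RNAs are known mainly from brain. Snord116, Snord116l1 and Snord116l2, copies of the RNA of the Prader-Willi region, were each listed at 0 in both uteri. Their deposited spans are identical over all 90 bases, and how reads that match several copies were counted is not given in the sources used here, so these zeros need not mean absence. Ipw, the noncoding gene spanning Snord116, had 0 and 0.640 RPKM. Snord64, of the same region, had 1 read in each uterus (5.67 and 5.11 RPKM). Snora35 was listed at 0, as was its host Htr2c, a serotonin receptor gene. The remaining members listed at 0 in both were Snora19, Snora24, Snora26, Snord7, Snord23, Snord38a, Snord45c and Snord90, besides Snord1a and the 5 in microRNA overlaps. Snord118, Snord13, Snord14, Snora73, Snord115 and Rn7sk were not analysed here.

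The proteins that carry these RNAs were listed above 1 RPKM throughout. All 28 partners on a fixed list had at least 1 RPKM in both uteri, against 58.4% of all rows, and 19 had at least 10, against 30.4%. None was 2-fold apart between the uteri, a count near the 2.6% of all rows past the filter that were, so it says little about these genes (median log2 ratio 0.05). The box C/D core proteins were even: the methyltransferase Fbl had 62.6 and 59.0 RPKM, Nop56 62.8 and 66.7, Nop58 55.3 and 56.7, and Nhp2l1 67.8 and 71.0. The box H/ACA core spread more widely: the pseudouridine synthase Dkc1 had 28.5 and 22.8 RPKM, Nhp2 35.8 and 39.8, Nop10 55.2 and 58.5, and Gar1 14.8 and 9.06. Gar1 and Dkc1 were lower in uterus 2, with log2 ratios of -0.70 and -0.32, while Nhp2 and Nop10 were higher at 0.15 and 0.08. Their part in the lower box H/ACA levels of uterus 2 was not tested. The 14 assembly and Cajal body factors ranged in mean from 4.91 RPKM (Nufip1) to 34.1 (Ruvbl2), with Coil, the Cajal body scaffold, at 6.70 and 5.59 and Wrap53, which brings RNAs to it, at 8.39 and 6.07. Naf1, Shq1, Pih1d1, Ruvbl1, Rpap3, Znhit3, Znhit6, Nolc1, Tgs1 and Smn1 lay between Nufip1 and Ruvbl2. The processing enzymes Parn, Exosc10, Exosc3, Xrn2 and Dbr1, the lariat debranching enzyme, had means from 8.03 (Dbr1) to 38.9 (Xrn2), and Rrp9, a U3 protein, had 15.8 and 11.9.

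Small structural RNAs whose symbols fall outside the rule varied in unlike ways. Rmrp and Rpph1, the RNA subunits of RNase MRP and RNase P, had 25922 and 21870 and 13604 and 18482 RPKM, above every member. Terc, the telomerase RNA, which carries an H/ACA domain, had 10.5 and 8.88 RPKM. Rnu12, a minor spliceosomal RNA, had 383 and 124 RPKM, a log2 ratio of -1.63 (-2.02 to -1.25 on 220 and 79 reads), in the range of the box H/ACA RNAs. Rnu11 had 62.8 and 54.4 RPKM (26 and 25 reads). Rnu73b, by its name a box C/D RNA and spanned by Rps3a1 like Snord73a, had 3.67 and 26.5 RPKM from 1 and 8 reads, and its counting interval of -0.05 to 8.32 includes 0. Rpph1 was higher in uterus 2 by 0.44 (0.41 to 0.47), so the lower values there were not shared by all small structural RNAs.

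The tissue label was checked against 21 markers, of which 18 had at least 10 RPKM in both uteri. Stroma (Pgr 77.5 and 66.4 RPKM), epithelium (Krt8 69.4 and 78.5) and smooth muscle (Acta2 653 and 592) were all present. Between the uteri the log2 ratios of the 6 stromal markers ran from -0.48 (Col1a1) to 0.22 (Vim), of the 5 epithelial ones from -0.09 (Cdh1) to 0.42 (Krt18), and of the 4 smooth muscle ones from -0.14 (Acta2) to 0.16 (Myh11). Pecam1 and Cdh5 of endothelium were at 0.00 and 0.05, and Ptprc of leukocytes at 0.28. The part of these differences in the members' levels was not tested. The ovary and oviduct markers were low, Star at 2.93 and 3.87 and Ovgp1 at 5.78 and 9.31 (log2 ratios 0.39 and 0.68), and the fat marker Adipoq was listed at 0.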

How the data were processed

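RNA was sequenced from whole uterus of 2 mice, 1 library each. The authors deposited RPKM per gene, normalized by gene length and library size per the labels. TopHat, edgeR and mm9 are named, without role or version, in the submitters' processing notes. The counter, strand setting and annotation release are not given in the sources used here. The build was checked against GENCODE M1 on NCBIM37. Of 21203 genes matched by symbol, 12380 had an annotated start 1 base after the deposited start, so deposited starts were read as counted from 0.

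Reads were recovered as RPKM times length times a scaling total, fitted on microRNA rows (3834174 for uterus 1, 4256101 for uterus 2). Reads of members came out whole within 0.01 read for 88 of 89 values above 0 in uterus 1 and 90 of 91 in uterus 2. The tolerance was tightened after the values were seen, which removed Snord58b. The recovery and the ratios were tested on simulated data. Scaling totals are not read totals, and the depth of members is given by their reads. Intervals are exact Clopper-Pearson, 95%, on the share of reads per uterus, and leave out PCR duplication and other error beyond counting. Nothing in the labels pairs or blocks the 2 libraries, and no test between groups exists.

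A host is the shortest row, not itself a member or microRNA, that spans a member on its strand in the deposited annotated table. Members named are the 12 with the highest mean, the 6 furthest toward each uterus among those with at least 20 reads, every Scarna, all members of hosts with at least 3, and the imprinted groups. Others named were chosen after their values were seen. For some named members the comparison with the host is not reported here. Members and lists were chosen with earlier results of these data known, and motif windows, length ranges, the start-site motif, printed sequences and the alternatives on minimum reads, GENCODE spans, summed reads and exon overlap after the values were seen. The promoter table is RefSeq's, and its 27025 genes carry 250 bases before to 50 after the start. Analyses used python 3.11.15, numpy 2.4.6, pandas 2.3.3, scipy 1.17.1 and matplotlib 3.10.9.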

Additional observations from a re-analysis of the deposited data

How the results depend on the processing

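Of 96 alternatives run, 69 were labelled as keeping the value, 24 as moving it and 3 as turning its sign. The 69 include counts that changed. Partner proteins went from 28 to 19 at a threshold of 10 RPKM, and box H/ACA RNAs from 29 to 23 at 5 reads in both uteri. No paired analysis was possible because the 2 libraries form 1 group. The share of box C/D RNAs with CTGA near the end (97.1%) was 82.4% over GENCODE spans, and that of box H/ACA RNAs with ACA hardly moved. Box C/D RNAs with at least 5 reads in both uteri (an alternative chosen after the data were seen, as were those on GENCODE length, summed reads and exon overlap) numbered 14, not 48. The median level of box C/D RNAs (8.54 RPKM) was 15.8 over members above 0 in both, 20.2 on a TPM scale, 7.20 on GENCODE length and 8.79 to 9.04 with either uterus alone. On the TPM scale the medians of box H/ACA and Cajal body RNAs were 65.2 and 193 (27.5 and 81.7 RPKM). The Cajal body median ran from 75.8 to 122 with either uterus alone. The log2 ratio of box C/D RNAs (-0.15) was 0 without a filter, -0.28 at a mean of 10 RPKM, -0.27 at 20 reads and -0.79 on summed reads. That of box H/ACA RNAs (-1.40) was -0.79 without a filter, -1.27 at 20 reads, -1.53 without symbols with a letter suffix, -0.68 on summed reads and -0.79 without members touching an exon or microRNA row. That of Cajal body RNAs (-0.44) was -0.13 without a filter, -0.29 at 10 RPKM and at 20 reads, and -0.20 on summed reads. The median log2 ratio of member to host (-2.58) became 0.025 among members with 20 reads, and rho (0.04) became -0.27 there. That filter selects on the member's own reads. The rank correlation of member and host levels ran from -0.027 to 0.063 with either uterus alone, and was 0.10 without members touching an exon or microRNA row. Without a filter, the 18 members at 0 in both uteri enter with a ratio of 0. The TPM scale multiplies all levels of a uterus by a common factor. The causes of the remaining shifts were not tested. Depth limits most members, since 61 of 113 had fewer than 10 reads.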
